A study of Mus musculus with 48 samples.

Results

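The genes described here are the 28 that carry out or control the synthesis of cholesterol and fatty acids and that were listed by name, from acetyl-CoA to cholesterol and to long-chain fatty acids. Every array probe whose RefSeq accession belonged to one of these genes was taken, which gave 49 of the 41174 probes and 28 of the 18883 named genes on the array. Frontal cortex and hypothalamus of 24 mice were each hybridised to 1 array, 48 in all, with 8 mice in each of 3 genotypes. Mice called Per3 5/5 or Per3 4/4 were homozygous for a knock-in in which exon 18 of mouse Per3, a clock gene, was replaced by exon 18 of human PER3 with 5 or 4 copies of its repeat, and wild-type (WT) mice came from the same conditional lines. The lines were on a C57BL/6 background, and mice came from homozygous breeding pairs. All 24 mice had been kept awake for 12 h in the light phase, and no mouse that slept was measured, so the arrays compare genotypes and tissues after sleep loss and not sleep loss itself. The model carries human exon sequence within a mouse gene, each sample was 1 tissue of 1 mouse, and the sex of the mice on the arrays was not given in the sources used here.

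Cholesterol is made in the brain itself, since plasma cholesterol hardly crosses the blood-brain barrier. Acetyl-CoA is joined into mevalonate, mevalonate is phosphorylated and turned into isoprenoid units, these are condensed to squalene, and squalene is closed to lanosterol and trimmed to cholesterol. Transcription of these enzymes is driven by the SREBP factors, which the genes Srebf1 and Srebf2 encode, which Scap carries out of the endoplasmic reticulum when sterols are low and which Insig1 and Insig2 hold there when sterols are high. In adult brain, neurons, astrocytes and the myelin-forming oligodendrocytes are known to differ in how much of this pathway they use.

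Promoter sequence shows what some of these genes share beyond their function. RefSeq promoters (build GRCm38.p6) were found for 22 of the 28 genes, as 30 windows, and the 250 bases before each start were searched on both strands for 4 motifs, each counted separately even where sites overlapped. The sterol element of the kind that SREBP binds, TCACNCCAC, was present in 1 member window (3.33%, Hmgcs1) against 1.05% of all 32851 promoters. The E-box, searched by the palindrome CACGTG, was in 4 windows (13.3%, of Dhcr7, Hsd17b7, Insig1 and Scap) against 6.02%. The box that the factor NF-Y recognises, CCAAT, was in 18 of the 30 windows (60.0%, 17 genes) against 33.8% of all promoters. The box recognised by the factor Sp1, GGGCGG, was in 21 of 30 windows (70.0%, 18 genes) against 32.7%. These matches describe letters and not binding. The promoters of 6 of the genes described below are printed 5′ to 3′ on the strand of the gene, with CCAAT boxes (ATTGG where the site lies on the other strand), E-boxes and the sterol element in capitals. They are Mvk at chr5:114444019-114444268 (plus strand), Mvd at chr8:122443423-122443672 (minus strand), Hmgcs1 at chr13:119690101-119690350 (plus strand), Lss at chr10:76531355-76531604 (plus strand), Insig1 at chr5:28071162-28071411 (plus strand) and Elovl6 at chr3:129532136-129532385 (plus strand). The window of Mvk holds 5 CCAAT boxes and that of Hmgcs1 holds 3, and the window of Elovl6 holds none of the 4 motifs.
Mvk: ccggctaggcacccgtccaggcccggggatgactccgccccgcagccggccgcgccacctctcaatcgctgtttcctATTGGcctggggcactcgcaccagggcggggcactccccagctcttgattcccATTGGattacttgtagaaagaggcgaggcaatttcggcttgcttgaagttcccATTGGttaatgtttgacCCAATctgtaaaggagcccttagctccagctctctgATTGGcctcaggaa
Mvd: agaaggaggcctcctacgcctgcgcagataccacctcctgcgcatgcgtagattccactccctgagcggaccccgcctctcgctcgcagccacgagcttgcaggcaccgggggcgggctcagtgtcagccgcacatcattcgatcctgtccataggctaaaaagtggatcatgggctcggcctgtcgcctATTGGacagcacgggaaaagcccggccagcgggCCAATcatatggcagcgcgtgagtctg
Hmgcs1: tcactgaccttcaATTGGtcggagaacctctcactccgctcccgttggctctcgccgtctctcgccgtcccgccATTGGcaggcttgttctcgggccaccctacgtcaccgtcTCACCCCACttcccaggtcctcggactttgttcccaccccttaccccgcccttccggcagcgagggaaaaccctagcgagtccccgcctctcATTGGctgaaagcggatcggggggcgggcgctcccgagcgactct
Lss: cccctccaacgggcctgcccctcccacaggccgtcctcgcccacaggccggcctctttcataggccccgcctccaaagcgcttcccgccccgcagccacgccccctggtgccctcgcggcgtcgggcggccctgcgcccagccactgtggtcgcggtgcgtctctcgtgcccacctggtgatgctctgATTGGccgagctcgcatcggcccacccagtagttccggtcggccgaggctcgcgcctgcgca
Insig1: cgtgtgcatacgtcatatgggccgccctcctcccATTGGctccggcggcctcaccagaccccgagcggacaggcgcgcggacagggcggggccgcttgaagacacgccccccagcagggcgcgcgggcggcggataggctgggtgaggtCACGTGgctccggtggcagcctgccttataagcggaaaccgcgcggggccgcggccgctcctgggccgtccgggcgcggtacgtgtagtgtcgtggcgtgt
Elovl6: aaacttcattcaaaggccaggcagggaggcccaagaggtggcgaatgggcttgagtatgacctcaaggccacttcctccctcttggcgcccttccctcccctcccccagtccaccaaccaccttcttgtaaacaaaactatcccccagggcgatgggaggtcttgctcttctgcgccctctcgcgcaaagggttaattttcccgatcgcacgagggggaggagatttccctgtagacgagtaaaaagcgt

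Levels are given as the log2 processed signal of a probe minus the log2 75th percentile of its array, so that 0 is the brightness of the 75th percentile and a difference of 1 is a factor of 2, and no level is compared between probes. Where a gene has several probes they are numbered in the order of their identifiers. All 49 member probes passed the filter on dim probes (in both tissues, some group had them well above background on 6 of its 8 arrays or more) and were tested, among 29714 probes tested in cortex and 30735 in hypothalamus. The tissues matched their labels, since the 8 hypothalamic markers were 4.07 to 10.42 log2 units higher in hypothalamus and the 7 probes of cortical markers lower. Array brightness went with genotype (75th percentile 972.8 to 1463 intensity units in WT cortex, 727.0 to 1148 in Per3 5/5 and 324.5 to 1102 in Per3 4/4). The arrays had been scanned on 3 days, with 4 mice of each knock-in on day 1, 3 Per3 4/4 and 5 WT mice on day 2, and 4 Per3 5/5, 1 Per3 4/4 and 3 WT mice on day 3, so each comparison with WT is also given with scan day as a block. WT replicate 3 stood apart in hypothalamus, being the highest or the lowest WT mouse, far from the other 7, for 5 of the probes below.

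After sleep loss the knock-in mice differed from WT in part of the pathway, by up to 0.88 log2 units and in both directions, as did many probes across the array. In cortex, 17 of 49 member probes (13 genes) differed between Per3 4/4 and WT mice at an adjusted p under 0.05 (limma, Benjamini-Hochberg over all probes tested), 14 higher and 3 lower in Per3 4/4, against 22.5% of all probes. For Per3 5/5 against WT the count was 8 of 49 (7 genes, 5 higher and 3 lower), against 12.4% of all probes. In hypothalamus it was 11 of 49 (9 genes, 9 higher and 2 lower) for Per3 4/4, against 15.1%, and 12 of 49 (11 genes, 7 higher and 5 lower) for Per3 5/5, against 18.8%. The share of members called was thus 34.7% and 16.3% in cortex and 22.4% and 24.5% in hypothalamus (Per3 4/4, then Per3 5/5). It exceeded the share of all probes most in Per3 4/4 cortex, and whether any such excess went beyond chance was not tested. Both knock-in groups were compared with the same WT arrays. The median difference of the members was 0.13 in Per3 4/4 cortex, where that of all probes was 0.02, 0.06 in Per3 5/5 cortex (all probes 0.06), 0.15 in Per3 4/4 hypothalamus (0.02) and 0.12 in Per3 5/5 hypothalamus (0.03). The balance of directions depended on the scaling: with arrays centred on their median, which moved the median difference of all probes in Per3 5/5 cortex from 0.06 to -0.05, the splits were 8 higher and 5 lower and 1 higher and 4 lower in cortex (Per3 4/4, then Per3 5/5), and 5 higher and 3 lower and 2 higher and 5 lower in hypothalamus. In the same 4 comparisons 18.4%, 11.6%, 13.5% and 17.7% of all probes were called with this centring. With normexp background correction, 12 members were higher and 2 lower in Per3 5/5 cortex, where 31.4% of all probes were called. In Per3 5/5 hypothalamus 2 were higher and 0 lower, where 6.25% of all probes were called. In another comparison, Per3 4/4 against WT in cortex, the median difference of all probes was 0.23 with this correction. None of the 48 single calls changed sign under median centring or normexp, where 29 and 31 of them stayed called. The deposited series table and the fit without the filter on dim probes rest on the same differences, so signs could hardly change there. Of the 48 calls, 48 and 38 stayed called in these 2 settings.

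**Figure D1:**
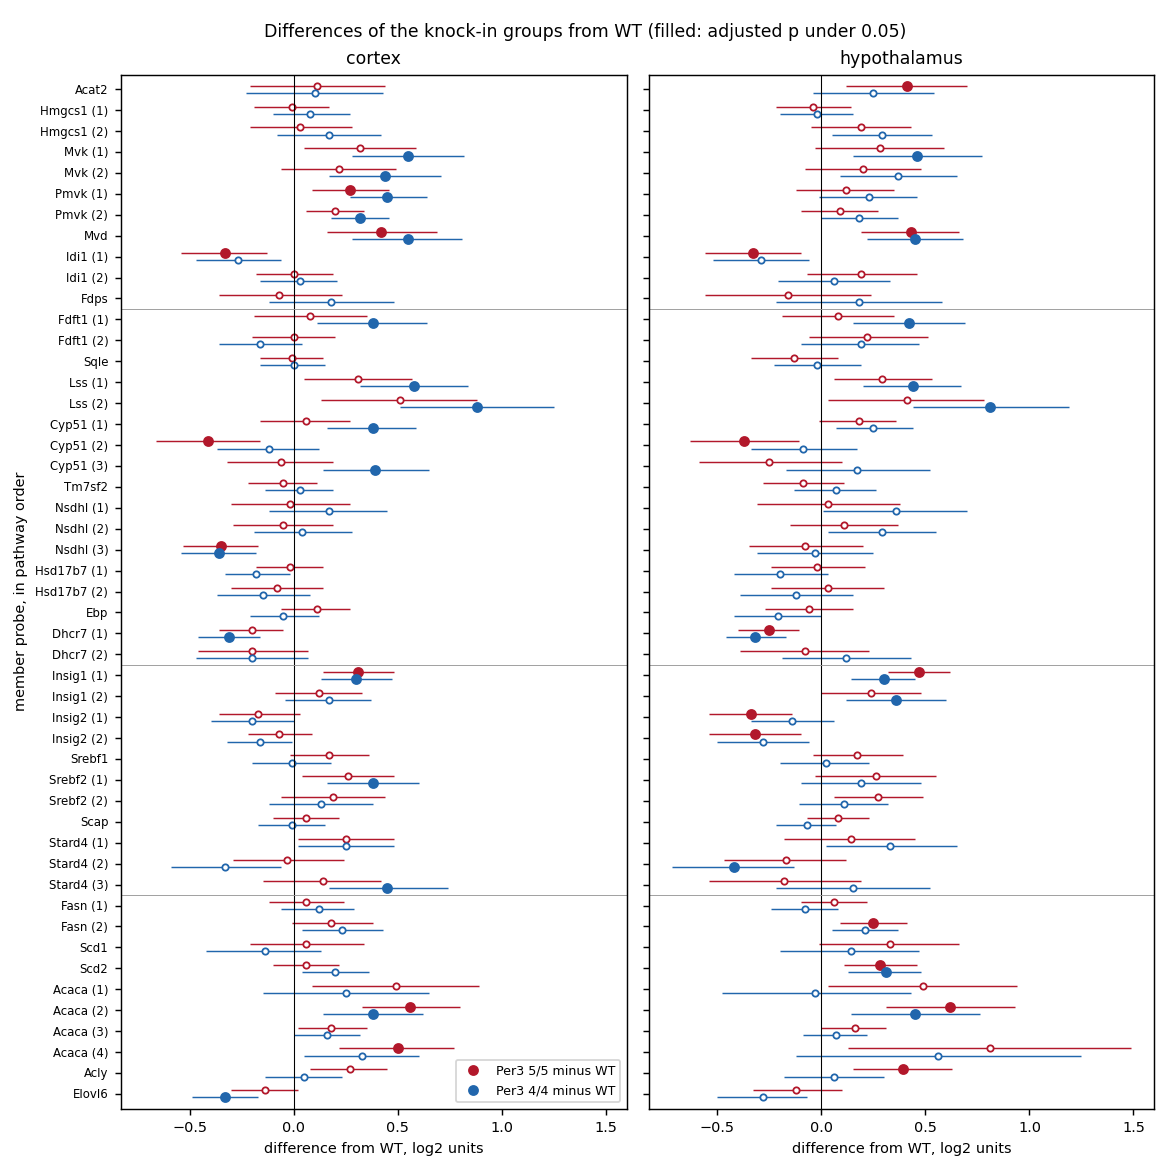
Difference of Per3 5/5 (red) and Per3 4/4 (blue) from WT for each of the 49 member probes, in log2 units on the horizontal axis, in cortex (left) and hypothalamus (right), with bars for the 95% confidence interval of the limma fit and filled points for an adjusted p under 0.05. Probes are in pathway order, with lines between the 4 role groups. Lss, Mvk, Pmvk and Mvd lie to the right of 0 and Idi1 (1), Cyp51 (2), Nsdhl (3) and Dhcr7 (1) to the left.

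Among the mevalonate steps the calls in Per3 4/4 cortex all had 1 direction. Of 11 probes for the 7 genes from Acat2 to Fdps, 5 were called in Per3 4/4 cortex, all of them higher. Among all probes tested there, 13.4% were called higher and 9.14% lower. The 5 probes belonged to Mvk, Pmvk and Mvd, the enzymes that phosphorylate mevalonate, phosphorylate it again and decarboxylate it to isopentenyl diphosphate. Pmvk (1) (A_51_P492408) ranged over 2.29, 2.41 and 2.5 in WT cortex (lowest, median and highest of 8 mice), 2.67, 2.86 and 3.12 in Per3 4/4 and 2.37, 2.76 and 2.92 in Per3 5/5. All 8 Per3 4/4 mice lay above all 8 WT mice, and 5 of 8 Per3 5/5 mice did. The difference from WT was 0.45 (SE 0.09, adjusted p = 0.00233) in Per3 4/4 and 0.27 (SE 0.09, adjusted p = 0.0472) in Per3 5/5. Pmvk (2) (A_51_P492410), with 2.61, 2.72 and 2.86 in WT, 2.93, 3.06 and 3.2 in Per3 4/4 and 2.74, 2.98 and 3.12 in Per3 5/5 cortex, differed in Per3 4/4 by 0.32 (SE 0.07, adjusted p = 0.00309), again with no overlap. With scan day as a block both Pmvk probes kept this call, at 0.3 (adjusted p = 0.0145) and 0.23 (adjusted p = 0.0279). In hypothalamus, where Pmvk (1) read 2.6, 2.82 and 3.34 in WT, 2.87, 3.05 and 3.32 in Per3 4/4 and 2.6, 3.07 and 3.27 in Per3 5/5 and Pmvk (2) 2.82, 3.11 and 3.47 in WT, 3.13, 3.31 and 3.38 in Per3 4/4 and 2.87, 3.28 and 3.42 in Per3 5/5, neither probe was called in either knock-in.

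Mvk (1) (A_51_P169527) read -1.96, -1.82 and -1.6 in WT, -1.57, -1.28 and -1.04 in Per3 4/4 and -2.12, -1.37 and -0.95 in Per3 5/5 cortex. All 8 Per3 4/4 mice were above all WT mice, and the difference was 0.55 (SE 0.13, adjusted p = 0.00604). The second probe, Mvk (2) (A_52_P569067), read -1.59, -1.24 and -0.93 in WT, -1.07, -0.85 and -0.64 in Per3 4/4 and -1.7, -1.03 and -0.63 in Per3 5/5 cortex, a difference of 0.44 (SE 0.13, adjusted p = 0.0201) in Per3 4/4 with 7 of 8 mice above all WT mice. In hypothalamus Mvk (1) read -1.94, -1.67 and -1.46 in WT, -1.64, -1.21 and -0.95 in Per3 4/4 and -2.01, -1.19 and -0.83 in Per3 5/5, a difference of 0.46 (SE 0.15, adjusted p = 0.042) in Per3 4/4, and Mvk (2) read -1.56, -1.08 and -0.86 in WT, -0.95, -0.75 and -0.52 in Per3 4/4 and -1.4, -0.83 and -0.43 in Per3 5/5 and was not called. In Per3 4/4 mice Mvk was thus called by both probes in cortex and by Mvk (1) alone in hypothalamus. The hypothalamus call was lost in 11 of the 24 fits that left out 1 mouse. In Per3 5/5 mice Mvk (1) differed by 0.32 (SE 0.13, adjusted p = 0.107) in cortex and was not called. With the scan day block Mvk (1) stood at 0.36 (adjusted p = 0.0539) in Per3 4/4 cortex, and neither Mvk probe was called in either tissue.

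Mvd was the mevalonate gene that was called against WT in each of the 4 comparisons. Its probe (A_51_P355943) read -0.28, -0.19 and 0.08 in WT cortex, -0.07, 0.42 and 0.71 in Per3 4/4 and -0.28, 0.33 and 0.65 in Per3 5/5. In hypothalamus it read -0.48, -0.2 and 0.02, -0.15, 0.21 and 0.68 and -0.12, 0.28 and 0.49 in the same order. Most knock-in mice were above every WT mouse (7 of 8 Per3 4/4 in each tissue, and 5 and 6 of 8 Per3 5/5 in cortex and hypothalamus), but the groups overlapped. The differences from WT were 0.55 (SE 0.13, adjusted p = 0.00588) and 0.42 (SE 0.13, adjusted p = 0.0361) in cortex and 0.45 (SE 0.11, adjusted p = 0.0153) and 0.43 (SE 0.11, adjusted p = 0.0131) in hypothalamus (Per3 4/4, then Per3 5/5). Scan day moved with them: in cortex the 4 Per3 4/4 mice of day 1 averaged 0.63 and the 3 of day 2 averaged 0.10, beside -0.14 in the 5 WT mice of day 2, and the 4 Per3 5/5 mice averaged 0.50 on day 1 and 0.01 on day 3. With the block the differences were 0.3 (adjusted p = 0.0416) and 0.18 (adjusted p = 0.268) in cortex and 0.26 (adjusted p = 0.142) and 0.23 (adjusted p = 0.185) in hypothalamus.

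The enzymes before and after these 3 were called less regularly. Acat2, which joins acetyl-CoA units, read -1.9, -1.41 and -0.79 in WT, -1.41, -1.19 and -0.87 in Per3 4/4 and -1.4, -1.02 and -0.58 in Per3 5/5 hypothalamus, a difference of 0.41 (SE 0.14, adjusted p = 0.0442) in Per3 5/5, and -1.1, -0.75 and -0.13 in WT, -1.1, -0.54 and -0.01 in Per3 4/4 and -1.04, -0.58 and -0.24 in Per3 5/5 cortex, where it was not called. Neither probe of Hmgcs1, the synthase that carries the sterol element in the promoter printed above, was called against WT, with differences of -0.04 to 0.29. Idi1, the isomerase of the isoprenoid units, was lower in Per3 5/5 by its probe Idi1 (1) (A_51_P329711). That probe read 1.96, 2.2 and 2.31 in WT, 1.53, 1.92 and 2.24 in Per3 4/4 and 1.51, 1.76 and 2.2 in Per3 5/5 cortex, and 1.99, 2.21 and 2.78 in WT, 1.57, 1.95 and 2.41 in Per3 4/4 and 1.75, 1.94 and 2.1 in Per3 5/5 hypothalamus. The differences of Per3 5/5 from WT were -0.33 (SE 0.1, adjusted p = 0.0309) and -0.33 (SE 0.11, adjusted p = 0.0416), but its other probe differed by 0 and 0.19, with neither called. Fdps, which condenses the units to farnesyl diphosphate, was not called in any genotype comparison.

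**Figure D2:**
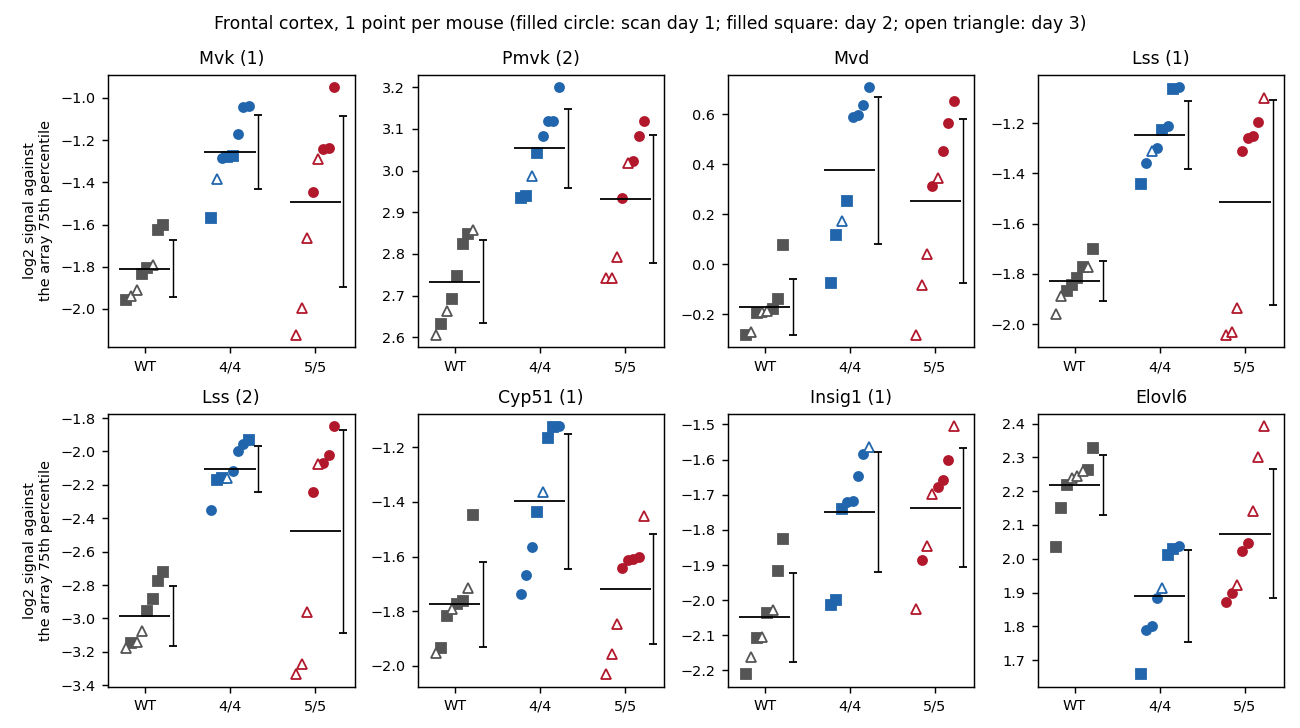
Log2 signal against the array 75th percentile (vertical axes, each with its own range) in frontal cortex for 8 member probes, 1 point per mouse, with 8 mice in each of the 3 genotypes, with the horizontal line at the group mean and the bar beside it giving 1 SD either way. Marker shape gives the scan day; Per3 4/4 mice lie above all WT mice for Mvk (1), Pmvk (2) and both Lss probes and mostly below for Elovl6.

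Of the 17 probes for 9 genes of the sterol steps, 7 were called in Per3 4/4 cortex, 5 higher and 2 lower. The shares of all probes called in that comparison were 13.4% higher and 9.14% lower. Lss, lanosterol synthase, closes the ring system, and its 2 probes gave the largest of the 17 called differences there. Lss (2) (A_52_P168028) read -3.18, -3.02 and -2.72 in WT cortex, -2.35, -2.14 and -1.93 in Per3 4/4 and -3.33, -2.16 and -1.85 in Per3 5/5. In hypothalamus it read -3.33, -2.91 and -2.67, -2.58, -2.13 and -1.75 and -3.19, -2.31 and -1.98. In both tissues all 8 Per3 4/4 mice were above all 8 WT mice, whereas the Per3 5/5 mice spanned both ranges. The differences of Per3 4/4 from WT were 0.88 (SE 0.18, adjusted p = 0.00289) in cortex and 0.81 (SE 0.18, adjusted p = 0.0101) in hypothalamus. Lss (1) (A_51_P296487), at -1.96, -1.83 and -1.7 in WT, -1.44, -1.26 and -1.05 in Per3 4/4 and -2.04, -1.28 and -1.1 in Per3 5/5 cortex, and -1.95, -1.79 and -1.49 in WT, -1.71, -1.29 and -1.1 in Per3 4/4 and -1.89, -1.44 and -1.16 in Per3 5/5 hypothalamus, differed in Per3 4/4 by 0.58 (SE 0.13, adjusted p = 0.0035) and 0.44 (SE 0.11, adjusted p = 0.0171). Both probes kept the call in cortex with the scan day block, at 0.69 (adjusted p = 0.0204) and 0.45 (adjusted p = 0.0299). On scan day 2 alone, 3 Per3 4/4 against 5 WT mice, the cortex difference of Lss (2) was 0.81 (adjusted p = 0.0475, limma), the only member call within a single scan day.

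The Per3 5/5 mice did not form 1 range for Lss. In cortex, Lss (2) was -2.07, -2.24, -2.02 and -1.85 in Per3 5/5 replicates 1 to 4, scanned on day 1, and -2.07 in replicate 5, scanned on day 3. It was -2.96, -3.27 and -3.34 in replicates 6, 7 and 8, which were scanned on day 3 too. Of the 5 former values 4 lay within the range of the Per3 4/4 mice and that of replicate 4 above it, and of the 3 latter that of replicate 6 lay within the range of the WT mice and those of replicates 7 and 8 below it. The hypothalamus of the same mice gave -1.98, -2.12, -2.02, -2.18 and -2.43 for replicates 1 to 5 and -3.19, -3.14 and -3.19 for replicates 6 to 8, so each mouse stood on the same side in both tissues. The mean of Per3 5/5 and its difference from WT, 0.51 (SE 0.18, adjusted p = 0.065) in cortex and 0.41 (SE 0.18, adjusted p = 0.113) in hypothalamus, are therefore means over unlike mice, as all 8 carry the Per3 5/5 label and all 8 enter each Per3 5/5 value given here. These 3 mice, singled out after their Lss values were seen, were also the 3 lowest of the 8 Per3 5/5 mice for 13 of the 49 member probes in cortex and 19 in hypothalamus, among them both probes of Mvk, Pmvk and Lss, and Mvd, Fdps, Fdft1 (1) and Srebf2 (1) in both tissues. Without the Lss probes, which had singled them out, the counts were 11 of 47 (23.4%) in cortex and 17 of 47 (36.2%) in hypothalamus, beside 13.9% and 19.8% of all probes tested. They were the 3 highest for 4 and 8 member probes (8.16% and 16.3%, beside 15.2% and 23.8% of all probes), with Elovl6 in both tissues. For Per3 itself, the gene with the exchanged exon, the probe A_51_P258493 (whose place relative to that exon is not given in the sources used here) was -2.9 to -2.46 in these 3 mice in cortex and -3.12 to -2.5 in hypothalamus. Unlike for Lss, they lay above all 8 WT mice in both tissues, which ranged from -3.83 to -3.13 and from -3.82 to -3.38. The probe did not part all knock-in mice from WT, so its level does not give the genotype of a single mouse. Cortex values of Per3 4/4 mice (-3.54 to -2.53) overlapped those of WT, whereas all 8 Per3 5/5 mice (-2.92 to -2.42) were higher. Hypothalamus values overlapped WT for both knock-ins (Per3 4/4 -3.92 to -3.01, Per3 5/5 -3.4 to -2.5). What else sets the 3 mice apart, scan day included, was not tested.

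**Figure D3:**
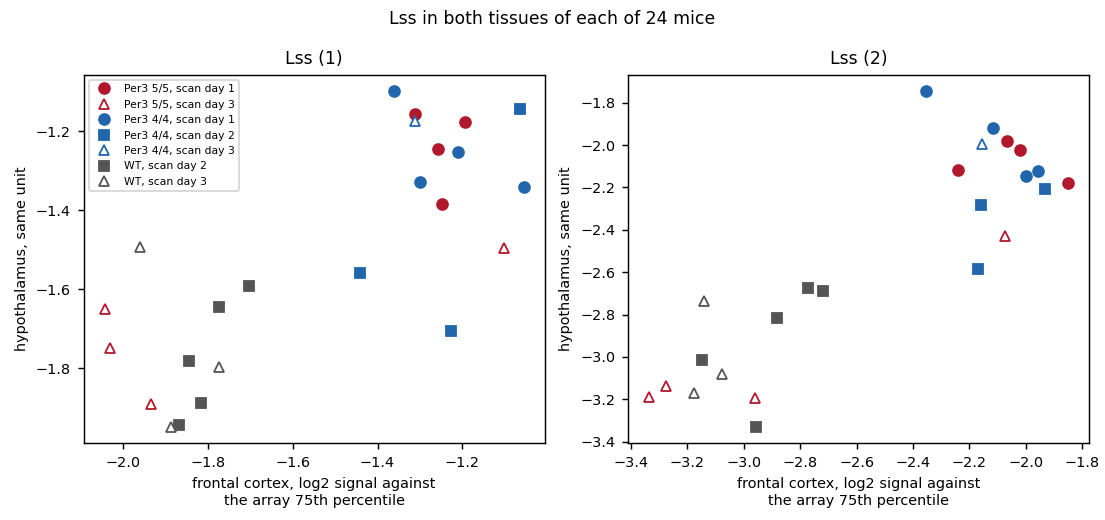
Lss level in frontal cortex (horizontal) and hypothalamus (vertical) of each of 24 mice, in log2 signal against the array 75th percentile, for the probes Lss (1) and Lss (2). Colour gives the genotype and marker shape the scan day; for Lss (2) the 8 WT mice and 3 Per3 5/5 mice, at -2.67 or lower in both tissues, lie apart from the other 13 mice.

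The probes of Cyp51, the demethylase that follows Lss, pointed in different directions. Cyp51 (1) (A_51_P485791) read -1.95, -1.78 and -1.45 in WT, -1.74, -1.4 and -1.12 in Per3 4/4 and -2.03, -1.63 and -1.45 in Per3 5/5 cortex. Cyp51 (3) (A_52_P636752) read -1.01, -0.99 and -0.82 in WT, -0.92, -0.62 and 0.16 in Per3 4/4 and -1.36, -0.92 and -0.82 in Per3 5/5. Both were higher in Per3 4/4, by 0.38 (SE 0.1, adjusted p = 0.0132) and 0.39 (SE 0.12, adjusted p = 0.0267), with 5 of 8 mice above all WT mice in each case. In hypothalamus, where Cyp51 (1) read -1.93, -1.66 and -1.38 in WT, -1.71, -1.39 and -1.13 in Per3 4/4 and -1.68, -1.52 and -1.25 in Per3 5/5 and Cyp51 (3) -1.14, -0.91 and -0.27, -1.05, -0.73 and -0.27 and -1.79, -0.85 and -0.67, neither was called. Cyp51 (2) (A_52_P164161) instead read -1.7, -1.64 and -1.44 in WT, -2.18, -1.83 and -1.26 in Per3 4/4 and -2.3, -2.03 and -1.64 in Per3 5/5 cortex, and -1.34, -1.15 and -0.88 in WT, -1.66, -1.26 and -0.64 in Per3 4/4 and -1.74, -1.46 and -1.39 in Per3 5/5 hypothalamus, where all 8 Per3 5/5 mice were below all WT mice. It was lower in Per3 5/5 by -0.41 (SE 0.12, adjusted p = 0.0291) and -0.37 (SE 0.12, adjusted p = 0.0399), while Cyp51 (1) in these mice differed by 0.06 and 0.18. With the scan day block, Cyp51 (1) in Per3 4/4 cortex alone kept a call for this gene, at 0.4 (adjusted p = 0.0358).

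Dhcr7 and Nsdhl were the sterol enzymes called lower in Per3 4/4 cortex. Dhcr7, the reductase that makes cholesterol from 7-dehydrocholesterol, read 2.57, 2.73 and 2.83 in WT, 1.98, 2.45 and 2.57 in Per3 4/4 and 2.34, 2.53 and 2.65 in Per3 5/5 cortex by its probe Dhcr7 (1) (A_51_P290986). In hypothalamus it read 2.81, 3.03 and 3.26 in WT, 2.51, 2.72 and 2.79 in Per3 4/4 and 2.59, 2.78 and 2.92 in Per3 5/5. All 8 Per3 4/4 mice were below all WT mice in both tissues, as were 6 of 8 Per3 5/5 mice in hypothalamus. The differences were -0.31 (SE 0.07, adjusted p = 0.00645), -0.32 (SE 0.07, adjusted p = 0.00981) and -0.25 (SE 0.07, adjusted p = 0.0177), and with the scan day block the call in cortex held, at -0.35 (adjusted p = 0.0175). Dhcr7 (2) was not called, with differences of -0.2 and 0.12 in Per3 4/4.

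Nsdhl, which removes the carbon left after demethylation, was lower by 1 of its 3 probes. Nsdhl (3) (A_52_P297803) read 0.12, 0.26 and 0.36 in WT cortex, -0.29, -0.15 and 0.09 in Per3 4/4 and -0.51, -0.08 and 0.15 in Per3 5/5, and -0.89, 0.25 and 0.33 in WT, -0.15, 0.07 and 0.39 in Per3 4/4 and -0.15, -0.01 and 0.23 in Per3 5/5 hypothalamus. In cortex all 8 Per3 4/4 mice were below all WT mice. In cortex it differed by -0.36 (SE 0.09, adjusted p = 0.00684) and -0.35 (SE 0.09, adjusted p = 0.0154), the former also with the block, at -0.34 (adjusted p = 0.0396), whereas Nsdhl (1) and Nsdhl (2) differed by 0.17 and 0.04 in Per3 4/4. Fdft1, squalene synthase, was higher in Per3 4/4 by its probe Fdft1 (1) (A_51_P485946), with 1.72, 1.96 and 2.18 in WT, 1.91, 2.33 and 2.69 in Per3 4/4 and 1.38, 2.14 and 2.51 in Per3 5/5 cortex and 1.89, 2.12 and 2.28 in WT, 2.33, 2.54 and 2.85 in Per3 4/4 and 1.57, 2.37 and 2.58 in Per3 5/5 hypothalamus. These were differences of 0.38 (SE 0.13, adjusted p = 0.0401) and 0.42 (SE 0.13, adjusted p = 0.0362), while its second probe differed by -0.16 and 0.19 and was not called. Sqle (squalene epoxidase), Tm7sf2, Hsd17b7 and Ebp, which act at other sterol steps, were not called against WT in either tissue.

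Of the regulators, Insig1 was called in each of the 4 comparisons with WT. Insig1 (1) (A_51_P290207) read -2.21, -2.07 and -1.82 in WT cortex, -2.01, -1.72 and -1.57 in Per3 4/4 and -2.03, -1.69 and -1.51 in Per3 5/5. In hypothalamus it read -1.89, -1.66 and -1.57, -1.61, -1.39 and -1.22 and -1.37, -1.25 and -0.99, and there all 8 Per3 5/5 mice were above all WT mice. The differences were 0.3 (SE 0.08, adjusted p = 0.0134) and 0.31 (SE 0.08, adjusted p = 0.0203) in cortex and 0.3 (SE 0.07, adjusted p = 0.0147) and 0.47 (SE 0.07, adjusted p = 0.00126) in hypothalamus (Per3 4/4, then Per3 5/5). The last of these was the only member call in hypothalamus that the scan day block left, at 0.43 (adjusted p = 0.028). Insig1 (2) (A_52_P393392) read -2.81, -2.66 and -2.44, -2.66, -2.43 and -2.37 and -3.08, -2.5 and -2.1 in cortex and -2.85, -2.17 and -1.95, -2.13, -1.88 and -1.64 and -2.32, -2.01 and -1.72 in hypothalamus (WT, Per3 4/4, Per3 5/5). It was called in Per3 4/4 hypothalamus, at 0.36 (SE 0.12, adjusted p = 0.0383), and its 3 other differences from WT were 0.17, 0.12 and 0.24.

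Insig2, the other retention protein, went the opposite way in Per3 5/5 hypothalamus. Insig2 (1) (A_51_P439452) read 3.02, 3.15 and 3.44 in WT, 2.69, 3.09 and 3.25 in Per3 4/4 and 2.59, 2.84 and 3.17 in Per3 5/5. Insig2 (2) (A_52_P113250) read 1.18, 1.43 and 2.1, 1, 1.15 and 1.33 and 0.89, 1.17 and 1.34. Both were lower in Per3 5/5 hypothalamus, by -0.34 (SE 0.1, adjusted p = 0.0201) and -0.32 (SE 0.11, adjusted p = 0.04), with overlap of the groups. The call of Insig2 (2) was lost in 9 of the 24 fits that left out 1 mouse. Among these was the fit without WT replicate 3, which read 2.1 where the other WT mice read 1.18 to 1.51. In cortex, where Insig2 (1) read 2.78, 2.87 and 3.08, 2.29, 2.72 and 3.03 and 2.56, 2.71 and 3.04 and Insig2 (2) 1, 1.08 and 1.18, 0.64, 0.9 and 1.1 and 0.8, 0.95 and 1.39, no difference was called.

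Srebf1, which encodes the factor most tied to fatty acid synthesis, read 2.76, 3.09 and 3.3 in WT cortex, 2.86, 3.05 and 3.26 in Per3 4/4 and 2.9, 3.27 and 3.53 in Per3 5/5. In hypothalamus it read 3.73, 4 and 4.12, 3.63, 4.02 and 4.42 and 3.74, 4.16 and 4.42. The groups overlapped throughout and no difference from WT was called, the 95% intervals reaching from -0.2 to 0.18 in Per3 4/4 cortex and from -0.04 to 0.39 in Per3 5/5 hypothalamus. Srebf2, which encodes the factor most tied to cholesterol synthesis, read -1.07, -0.8 and -0.62 in WT, -0.77, -0.42 and -0.08 in Per3 4/4 and -1.03, -0.46 and -0.29 in Per3 5/5 cortex by Srebf2 (1) (A_51_P377508). This was higher in Per3 4/4 by 0.38 (SE 0.11, adjusted p = 0.0154), and 0.26 in Per3 5/5 without a call. In hypothalamus Srebf2 (1) read -1.7, -1 and -0.73, -1.15, -0.89 and -0.62 and -1.43, -0.73 and -0.45, with differences of 0.19 and 0.26 that were not called. The dim probe Srebf2 (2) (A_52_P302001) read -5.6, -5.29 and -4.76, -5.52, -5.07 and -4.82 and -5.48, -5.04 and -4.75 in cortex and -5.55, -5.23 and -4.95, -5.43, -5.19 and -4.79 and -5.18, -5 and -4.73 in hypothalamus and was not called.

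Scap, the carrier of both factors, was not called. Stard4, a cytosolic sterol carrier, had probes of opposite sign. Stard4 (3) (A_52_P561205), a dim probe at -5.2, -5.14 and -4.72 in WT, -4.87, -4.61 and -4.39 in Per3 4/4 and -5.75, -4.84 and -4.33 in Per3 5/5 cortex, was higher in Per3 4/4 by 0.45 (SE 0.14, adjusted p = 0.0227). Stard4 (2) (A_52_P384574), at 0.77, 0.98 and 1.46 in WT, 0.37, 0.48 and 1.13 in Per3 4/4 and 0.42, 0.71 and 1.34 in Per3 5/5 hypothalamus, was lower in Per3 4/4 by -0.42 (SE 0.14, adjusted p = 0.0476). The difference of Stard4 (2) in Per3 4/4 cortex was -0.33, where it read 0.45, 0.76 and 0.93 in WT, 0.26, 0.37 and 0.56 in Per3 4/4 and 0.31, 0.56 and 1.42 in Per3 5/5. In hypothalamus Stard4 (3) read -5.49, -4.92 and -4.44 in WT, -5.15, -4.83 and -4.28 in Per3 4/4 and -5.94, -4.9 and -4.64 in Per3 5/5 and was not called. Stard4 (1) (A_51_P105445) was not called either, with differences of 0.25 and 0.25 in cortex and 0.33 and 0.14 in hypothalamus (Per3 4/4, then Per3 5/5), the latter over 7 WT mice since the spot of 1 was left out.

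Of the fatty acid genes, Acaca, acetyl-CoA carboxylase, whose product is the building unit of fatty acids, was higher in both knock-ins by its probe Acaca (2), and in Per3 5/5 cortex by Acaca (4) as well, out of 4 probes. Acaca (2) (A_52_P23177) read -4.6, -4.06 and -3.64 in WT cortex, -3.79, -3.66 and -3.57 in Per3 4/4 and -3.85, -3.48 and -3.19 in Per3 5/5, and -5.04, -4.02 and -3.78, -3.91, -3.66 and -3.42 and -3.93, -3.44 and -3.06 in hypothalamus. It differed from WT by 0.38 (SE 0.11, adjusted p = 0.0216) and 0.56 (SE 0.11, adjusted p = 0.0057) in cortex and by 0.45 (SE 0.15, adjusted p = 0.0461) and 0.62 (SE 0.15, adjusted p = 0.00795) in hypothalamus. In each tissue 6 of 8 Per3 5/5 mice were above all WT mice. Acaca (4) (A_52_P595124), at -4.96, -4.25 and -4 in WT, -4.27, -4.03 and -3.73 in Per3 4/4 and -4.19, -3.89 and -3.53 in Per3 5/5 cortex, was higher in Per3 5/5 by 0.5 (SE 0.13, adjusted p = 0.0209), and in hypothalamus, at -5.95, -4.26 and -3.19 in WT, -4.35, -4.01 and -2.32 in Per3 4/4 and -4.17, -3.75 and -2.17 in Per3 5/5, it was not called (0.81). Acaca (3) was not called, with differences of 0.07 to 0.18. Nor was Acaca (1) (A_51_P439426), which read -5.57, -4.57 and -4.28 in WT, -5, -4.56 and -3.93 in Per3 4/4 and -5.01, -4.34 and -3.79 in Per3 5/5 cortex, and differed by 0.25 and 0.49 in cortex and by -0.03 and 0.49 in hypothalamus (Per3 4/4, then Per3 5/5). The call of Acaca (2) in Per3 4/4 hypothalamus was lost in 13 of the 24 fits that left out 1 mouse, and with the scan day block none of the 5 Acaca calls held (adjusted p = 0.0521 to 0.117).

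Scd2, Acly and Fasn were called in hypothalamus and not in cortex, and the difference between the tissues was not called for any of them. Scd2, a stearoyl-CoA desaturase of brain, read 6.21, 6.6 and 6.77 in WT, 6.61, 6.93 and 7.04 in Per3 4/4 and 6.72, 6.83 and 7.04 in Per3 5/5 hypothalamus, higher by 0.31 (SE 0.08, adjusted p = 0.0207) and 0.28 (SE 0.08, adjusted p = 0.0212). Acly, which supplies cytosolic acetyl-CoA, read 0.55, 0.72 and 0.93 in WT, 0.48, 0.81 and 0.9 in Per3 4/4 and 0.69, 1 and 1.71 in Per3 5/5, higher in Per3 5/5 by 0.39 (SE 0.12, adjusted p = 0.0232). Fasn, fatty acid synthase, read -0.74, -0.58 and -0.42 in WT, -0.52, -0.4 and -0.11 in Per3 4/4 and -0.5, -0.34 and -0.06 in Per3 5/5 by Fasn (2) (A_52_P100252), higher in Per3 5/5 by 0.25 (SE 0.08, adjusted p = 0.0291), while Fasn (1) differed by 0.06 without a call. In cortex Scd2 read 6.1, 6.25 and 6.41 in WT, 6.15, 6.5 and 6.64 in Per3 4/4 and 6.04, 6.34 and 6.48 in Per3 5/5. Acly read 0.3, 0.54 and 0.64, 0.32, 0.6 and 0.7 and 0.55, 0.67 and 1.17 there, and Fasn (2) -1.07, -0.9 and -0.8, -0.97, -0.69 and -0.34 and -1.22, -0.68 and -0.43, so that the groups overlapped for all 3 genes. Markers of oligodendrocytes and myelin moved with these: 14 of their 22 probes were called higher in Per3 4/4 hypothalamus and 9 in Per3 5/5 hypothalamus, with medians of 0.45 and 0.31, and their mean level ranged over 1.38 to 1.92 in WT, 1.76 to 2.20 in Per3 4/4 and 1.62 to 2.06 in Per3 5/5. In each comparison 1 probe of Mbp was called lower (-0.27). With the scan day block 4 and 0 of the myelin probes were called higher. Markers of astrocytes and neurons moved too: of 16 astrocyte probes 5 were called higher in Per3 4/4 hypothalamus (median 0.28) and 6 higher and 2 lower in Per3 5/5 (median 0.38), and of 13 neuronal probes 4 (median 0.22) and 6 (median 0.3) were called higher. Among all probes 8.24% and 10.3% were called higher. Microglial, choroid plexus and endothelial lists did not rise in both knock-ins. Of 11 microglial probes 0 and 1 were called lower (medians 0.3 and -0.3), and of 7 choroid plexus probes 0 and 2 (medians -0.09 and -0.21), with 1 higher in Per3 5/5. Of 6 endothelial probes 1 was called lower in Per3 4/4 (median 0.16) and 1 higher in Per3 5/5 (median 0). Of the 14 myelin marker genes 13 had a probe that was tested, and the part of these markers in the differences of Scd2, Acly and Fasn was not tested. In whole tissue, more cells of a type and more RNA per cell cannot be told apart.

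Elovl6, the elongase that makes stearate, was the fatty acid gene that was lower. It read 2.04, 2.24 and 2.33 in WT cortex, 1.66, 1.9 and 2.04 in Per3 4/4 and 1.87, 2.03 and 2.39 in Per3 5/5. In Per3 4/4 cortex 7 of 8 mice were below all WT mice, a difference of -0.33 (SE 0.08, adjusted p = 0.00595), and -0.27 (adjusted p = 0.046) with the scan day block. In hypothalamus, at 2.75, 2.92 and 3.08 in WT, 2.41, 2.63 and 3.01 in Per3 4/4 and 2.46, 2.75 and 3.16 in Per3 5/5, it differed in Per3 4/4 by -0.28, which was not called. Scd1, the other stearoyl-CoA desaturase, was not called against WT.

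Fewer members were called once scan day was in the fit. With scan day as a block, 9 of 49 member probes stayed called in Per3 4/4 cortex (7.72% of all probes), of Mvd, Pmvk (both probes), Lss (both probes) and Cyp51 (1), higher, and of Dhcr7 (1), Nsdhl (3) and Elovl6, lower. None of 49 did in Per3 5/5 cortex (0.986% of all probes) and none in Per3 4/4 hypothalamus (0.745%), where 11 and 17 members had an unadjusted p under 0.05 in limma, and 1, Insig1 (1), in Per3 5/5 hypothalamus (2.1%). All 48 differences called without the block kept their sign with it. With slide as a fixed block, where no slide held a Per3 5/5 and a WT mouse together, no member was called. Leaving out Per3 5/5 replicate 2, 3 or 4 took the count in Per3 5/5 cortex from 8 to 4, 4 and 5, leaving out WT replicate 3 took it to 5, and leaving out Per3 5/5 replicate 8 took it to 15. In Per3 5/5 hypothalamus the count of 12 fell to 7 without Per3 5/5 replicate 8 or WT replicate 1. In Per3 4/4 hypothalamus the count of 11 fell to 6 without Per3 4/4 replicate 2 or WT replicate 1, and to 7 without Per3 4/4 replicate 1, 3, 5, 7 or 8 or WT replicate 3, 6 or 8. Of the 48 calls, 32 remained in each of the 24 fits that left out 1 mouse. Lost most often, in 16 fits each, were Pmvk (1) in Per3 5/5 cortex and Stard4 (2) in Per3 4/4 hypothalamus. Acat2 in Per3 5/5 hypothalamus was lost in 14 and Acaca (2) in Per3 4/4 hypothalamus in 13. Mvd in Per3 5/5 cortex, Fdft1 (1) in Per3 4/4 cortex and Mvk (1) in Per3 4/4 hypothalamus were lost in 11 each.

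**Figure D4:**
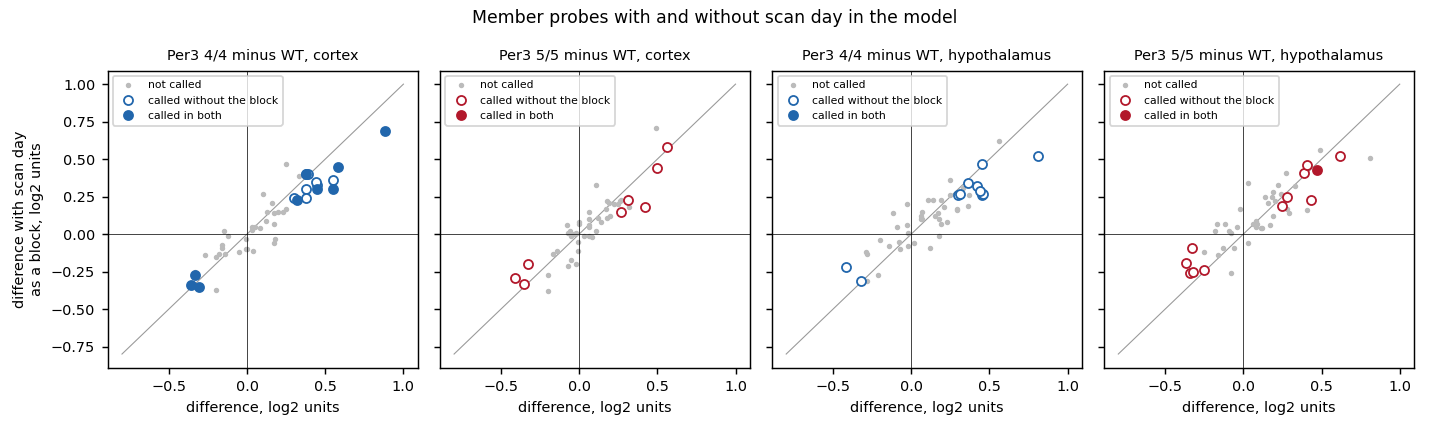
Difference from WT in log2 units without (horizontal) and with (vertical) scan day as a block, for the 49 member probes in each knock-in and tissue. Grey points were not called, open circles were called without the block only and filled circles in both fits, and the grey line marks equal values; 9 filled circles lie in Per3 4/4 cortex, 1 in Per3 5/5 hypothalamus and none in the other panels.

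The knock-in lines, which differ in repeat number, were compared as Per3 5/5 minus Per3 4/4. Each repeat allele was its own line, so repeat number and line cannot be told apart here. The lines were also spread unequally over the scan days. No member probe differed at an adjusted p under 0.05 in cortex or hypothalamus, where 0% of all probes did, with or without the scan day block. At an unadjusted p under 0.05 there were 9 members in cortex and 8 in hypothalamus (limma), the smallest adjusted p among members was 0.285 and 0.24, and the methods' t-test called none either. The paper also called probes by a rank product analysis, which was not run here. By its wider rule the paper reports transcripts that differed between the knock-ins in both tissues. The member differences in cortex lay between -0.45 and 0.30, and those in hypothalamus between -0.42 and 0.52. For Lss (2) the difference was -0.37 in cortex with a 95% interval from -0.75 to 0, and for Mvd -0.12 with an interval from -0.39 to 0.14. The half-width of these 95% intervals, which were not adjusted for the number of probes, had a median of 0.21 in cortex and 0.24 in hypothalamus. A call also had to pass the adjustment over all probes tested. With 8 mice per group, member differences as large as -0.45 in cortex and 0.52 in hypothalamus were not called.

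Between the tissues the share of members called was close to that of all probes. With the hypothalamus and cortex of each mouse as a pair, 35 of 49 member probes (24 genes) differed (71.4%), against 73.6% of all probes. Of these, 25 were higher in hypothalamus (51% of the members and 38.1% of all probes) and 10 lower (20.4% and 35.5%), with a median of 0.13 for the members and 0.01 for all probes. Srebf1, Elovl6 and Scd1 showed the largest positive differences of the 49 probes. Srebf1 (A_51_P401921) averaged 3.11 ± 0.19 in cortex and 4.04 ± 0.21 in hypothalamus (mean ± SD, n = 24 mice), a paired difference of 0.93 (SE 0.05, adjusted p = 1.72e-14), and was higher in hypothalamus in 24 of 24 mice, by 0.48 to 1.27. Elovl6 (A_51_P463440) averaged 2.06 ± 0.19 and 2.79 ± 0.22, a difference of 0.73 (SE 0.04, adjusted p = 1.1e-14) in 24 of 24 mice. Scd1 (A_52_P682382) averaged 2.13 ± 0.27 and 2.85 ± 0.35, a difference of 0.72 (SE 0.07, adjusted p = 1.29e-09) in 23 of 24 mice, the exception being WT replicate 3. By genotype, Scd1 read 2.03, 2.1 and 2.35 in WT, 1.35, 2.15 and 2.36 in Per3 4/4 and 1.83, 2.11 and 2.66 in Per3 5/5 cortex, and 1.83, 2.83 and 3.04 in WT, 2.24, 2.88 and 3.08 in Per3 4/4 and 2.58, 2.99 and 3.58 in Per3 5/5 hypothalamus, so that the ranges of the tissues overlapped between mice. Scd2 and both Fasn probes were also higher in hypothalamus, by 0.42, 0.16 and 0.36, as was Acly, by 0.26.

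Sterol steps were called in both directions between the tissues. Sqle was higher in hypothalamus, 2.45 ± 0.2 against 1.98 ± 0.13, by 0.47 (SE 0.05, adjusted p = 2.64e-09) and in 23 of 24 mice. Both Insig1 probes were higher there, by 0.4 and 0.5 (SE 0.05, adjusted p = 1.44e-09), and so were both Insig2 probes, by 0.27 and 0.24, both Pmvk probes, by 0.31 and 0.28, and both Dhcr7 probes, by 0.3 and 0.33. Hsd17b7, a ketosteroid reductase of the demethylation steps, went the other way in every mouse: Hsd17b7 (1) (A_51_P250934) averaged 1.93 ± 0.16 in cortex and 1.18 ± 0.22 in hypothalamus, and Hsd17b7 (2) (A_52_P566605) -0.55 ± 0.21 and -1.33 ± 0.26. The differences were -0.75 (SE 0.05, adjusted p = 2.32e-12) and -0.77 (SE 0.05, adjusted p = 3.14e-13), with 0 of 24 mice higher in hypothalamus. By genotype, Hsd17b7 (1) read 1.76, 2.02 and 2.18 in WT, 1.68, 1.83 and 1.94 in Per3 4/4 and 1.78, 1.9 and 2.3 in Per3 5/5 cortex, and 0.95, 1.26 and 1.49 in WT, 0.72, 1.05 and 1.33 in Per3 4/4 and 0.88, 1.24 and 1.6 in Per3 5/5 hypothalamus. Hsd17b7 (2) read -0.72, -0.49 and -0.24 in WT, -0.85, -0.64 and -0.39 in Per3 4/4 and -1.04, -0.55 and -0.24 in Per3 5/5 cortex, and -1.62, -1.24 and -1 in WT, -1.75, -1.44 and -0.97 in Per3 4/4 and -1.63, -1.25 and -0.92 in Per3 5/5 hypothalamus, so that the ranges of the tissues met in no genotype for Hsd17b7 (1), and for Hsd17b7 (2) in Per3 5/5 but not in WT or Per3 4/4. Acat2 averaged -0.66 ± 0.32 in cortex and -1.19 ± 0.32 in hypothalamus, a difference of -0.53 (SE 0.07, adjusted p = 3.41e-07), and both Hmgcs1 probes were lower in hypothalamus, by -0.28 and -0.29, as was Srebf2 (1), by -0.3. Lss and Mvd, which differed between genotypes, were not called between tissues, at 0.01 (95% interval -0.08 to 0.11), -0.01 (-0.12 to 0.1) and -0.07 (-0.15 to 0).

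**Figure D5:**
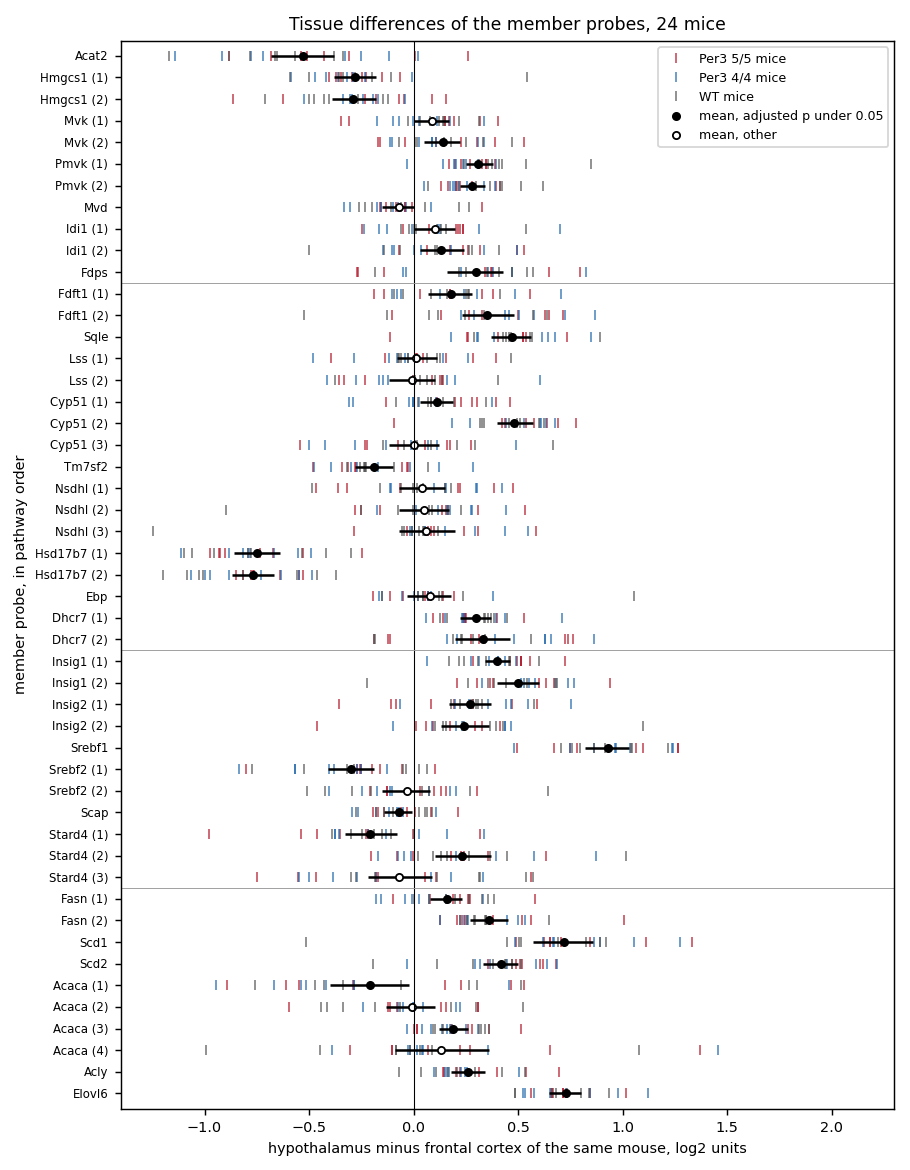
Hypothalamus minus frontal cortex of the same mouse in log2 units (horizontal) for the 49 member probes, with a tick for each of 24 mice coloured by genotype, a point for the mean and a bar for its 95% confidence interval from limma. Srebf1, Elovl6 and Scd1 lie farthest to the right and both Hsd17b7 probes farthest to the left.

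Cell type markers moved between the tissues with the members. Of 22 probes for oligodendrocyte and myelin genes 21 were called higher in hypothalamus and 1 lower, with a median of 0.89, and their mean level was 0.02 to 1.55 in cortex against 1.38 to 2.20 in hypothalamus. Of 13 neuronal marker probes 11 were called lower, with a median of -1.27 (mean level 3.89 to 4.50 in cortex and 2.85 to 3.44 in hypothalamus). All 7 choroid plexus probes were called higher (median 1.86), all 11 microglial probes lower (median -0.67) and 5 of 6 endothelial probes lower (median -0.27), while of 16 astrocyte probes 8 were higher and 6 lower (median 0.14). The part of any of these in the tissue differences of Srebf1, Elovl6, Scd1 or Hsd17b7 was not tested. The tissue differences did not differ between genotypes at an adjusted p under 0.05: no member was called for Per3 5/5 against WT, where 0.00961% of all probes were, or for Per3 4/4 against WT, where 0.0032% were. At an unadjusted p under 0.05 there were 2 and 5 members (limma), and the interaction ranged from -0.31 to 0.31 and from -0.30 to 0.34.

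Other genes of lipid metabolism were counted in 3 lists beside the members. Among all probes tested, 13.4% were called higher and 9.14% lower in Per3 4/4 cortex, and 8.44% and 3.91% in Per3 5/5 cortex. In hypothalamus these shares were 8.24% and 6.81% in Per3 4/4 and 10.3% and 8.55% in Per3 5/5. Whether a list differed from all probes was not tested. Of 21 probes for 12 further sterol and isoprenoid genes, 5 were called higher and 2 lower in Per3 4/4 cortex, 1 and 3 in Per3 5/5 cortex, 2 and 2 in Per3 4/4 hypothalamus and 2 and 2 in Per3 5/5 hypothalamus. Mbtps1, the protease that makes the first cut in SREBP, was higher in all 4 comparisons by a dim probe (A_52_P406482), at 0.43 and 0.45 in cortex and 0.32 and 0.47 in hypothalamus (Per3 4/4, then Per3 5/5). A second probe of Mbtps1 was higher in Per3 4/4 cortex (0.72), but the third was negative throughout and not called, at -0.2 and -0.09 in cortex and -0.35 and -0.3 in hypothalamus (Per3 4/4, then Per3 5/5). Rnf139, a ubiquitin ligase of the endoplasmic reticulum membrane, was lower in all 4 by 1 probe, at -0.41 and -0.34 in cortex and -0.39 and -0.38 in hypothalamus (Per3 4/4, then Per3 5/5). Further calls were Dhdds (0.36) and Erlin2 (0.44), higher in Per3 4/4 cortex, and Msmo1, a demethylation enzyme (-0.25), lower in Per3 5/5 cortex. With the scan day block, Mbtps1 (0.36, adjusted p = 0.028) and Rnf139 (-0.27, adjusted p = 0.028) stayed called in Per3 4/4 cortex and Mbtps1 in Per3 5/5 cortex (0.44, adjusted p = 0.0491).

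Of 25 probes for 19 genes of cholesterol transport and turnover, 7 were higher and 1 lower in Per3 4/4 cortex, 3 and 1 in Per3 5/5 cortex, 5 and 4 in Per3 4/4 hypothalamus and 5 and 3 in Per3 5/5 hypothalamus. Cyp46a1, which turns cholesterol into the hydroxysterol that leaves the brain, was higher at 0.68 and 0.52 in cortex and 0.74 and 0.6 in hypothalamus (Per3 4/4, then Per3 5/5), with Per3 5/5 cortex not called (adjusted p = 0.0513). The efflux transporter Abcg1 was lower in all 4, at -0.36 and -0.32 in cortex and -0.34 and -0.36 in hypothalamus (Per3 4/4, then Per3 5/5), while its relative Abcg4 was higher in all 4, at 0.25 and 0.27 in cortex and 0.35 and 0.42 in hypothalamus (Per3 4/4, then Per3 5/5), as was the oxysterol receptor Nr1h2, at 0.36 and 0.35 in cortex and 0.46 and 0.58 in hypothalamus (Per3 4/4, then Per3 5/5). In Per3 4/4 mice Lcat, which esterifies cholesterol on lipoproteins (0.41 and 0.8 in cortex and hypothalamus), and the lysosomal cholesterol exporter Npc1 (0.3 and 0.28) were higher, and in Per3 5/5 mice the receptor Lrp1 was (0.38 and 0.41). Vldlr was lower in Per3 4/4 hypothalamus (-0.44). The remaining calls were of genes whose probes differed in sign between comparisons. They were Soat1 (0.51 in Per3 4/4 cortex, and by another probe -0.41 and -0.37 in hypothalamus, Per3 4/4 then Per3 5/5), Lrp8 (-0.3 in Per3 4/4 and, by another probe, 0.41 in Per3 5/5 hypothalamus) and Mylip (0.49 in Per3 4/4 cortex and, by another probe, -0.24 in Per3 5/5 hypothalamus). With the scan day block Abcg1 (-0.30, adjusted p = 0.024) and Soat1 (0.38, adjusted p = 0.0388) stayed called, in Per3 4/4 cortex.

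Of the list for fatty acid supply, desaturation and elongation, with 22 genes and 32 probes tested in cortex and 33 in hypothalamus, 7 were higher and 3 lower in Per3 4/4 cortex, 1 and 2 in Per3 5/5 cortex, 6 and 1 in Per3 4/4 hypothalamus and 4 and 1 in Per3 5/5 hypothalamus. Slc25a1, the mitochondrial citrate carrier that supplies Acly, was higher in all 4, at 0.32 and 0.28 in cortex and 0.44 and 0.43 in hypothalamus (Per3 4/4, then Per3 5/5). The desaturase Fads2 was higher at 0.52 and 0.34 in cortex and 0.42 and 0.44 in hypothalamus (Per3 4/4, then Per3 5/5), with Per3 5/5 cortex not called, and Fads1 was higher in Per3 4/4 cortex (0.51). In Per3 4/4 mice Acsl6, which activates fatty acids (0.59 and 0.68, cortex then hypothalamus), and Tecr, which ends the elongation cycle (0.43 and 0.52), were higher in both tissues, Mlxipl (0.44) and Thrsp (0.43) in cortex and Acss2 (0.37) in hypothalamus. The elongase Elovl1 was higher in the hypothalamus of both knock-ins (0.47 and 0.41, Per3 4/4 then Per3 5/5), and Elovl7 lower in the cortex of both (-0.36 and -0.29). Acsl1 was lower in the cortex of Per3 4/4 (-0.26) and of Per3 5/5 mice (-0.29) and in Per3 5/5 hypothalamus (-0.4), and Elovl4 in Per3 4/4 cortex (-0.26). Acsl4 differed in sign between probes, at -0.48 in Per3 4/4 and 0.44 in Per3 5/5 hypothalamus. With the scan day block Fads1 (0.47, adjusted p = 0.0213) and Elovl7 (-0.35, adjusted p = 0.0376) stayed called in Per3 4/4 cortex.

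Between the tissues, 12 probes of the first list were higher and 3 lower in hypothalamus, 11 and 9 of the second and 14 and 12 of the third, out of 21, 25 and 33 probes tested and beside 38.1% higher and 35.5% lower among all probes. The calls of at least 0.5 log2 units in the first list were Erlin2 (0.84, 0.73 and 0.76 for 3 probes) and Lbr (0.58), higher, and Ggps1 (-0.52), lower. In the second they were Abca1 (0.63), Lipa (0.50), Npc2 (0.70) and Soat1 (0.72), higher, and Cyp46a1 (-0.95), Lcat (-0.58), Lrp8 (-0.85 and -0.71 for 2 probes) and Stard3 (-0.60), lower. In the third they were Acacb, the carboxylase that is the counterpart of Acaca (1.65), the phosphatidate phosphatase Lpin1 (1.11, 1.28 and 1.31 for 3 probes), Slc25a1 (0.94), Elovl1 (0.67) and Tecr (0.51), higher, and Acsl5 (-1.35), Elovl2 (-0.87), Thrsp (-0.68) and Acsl4 (-0.52 for both called probes), lower.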

How the data were processed

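Each array was a 1-colour Agilent mouse array scanned and read by the authors with Feature Extraction 10.7.1.1, per the file headers, which gave background-subtracted processed signals as intensity values per spot. The authors also deposited a table of log2 values made from the same arrays in GeneSpring, shifted to the 75th percentile and centred per probe. Of its values 99.97% lay within 0.05 log2 units of those recomputed here, and 287243 cortex values were blank. Here spots with outlier flags were left out, spots of a probe averaged, and log2 signals set against the 75th percentile of each array. Probes were named through RefSeq accessions (27668 of 41174 probes had 1 gene symbol). Probes that 6 or more of the 8 arrays of some group had well above background were tested with limma 3.58.1 in R 4.3.3 (lmFit, eBayes, two-sided), with the 3 genotypes of a tissue in 1 fit and Benjamini-Hochberg adjustment over all probes tested at 0.05. Tissues were compared on the difference within each mouse, named by the labels. The deviations of a mouse's 2 tissues from their group means correlated at 0.12 to 0.74. P-values measure the spread between mice, each read on 1 array per tissue, so that array, slide and scan day enter that spread. The number of arrays limits the precision.

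All 49 probes of the members are described, with full values for those called between genotypes or at least 0.5 log2 units apart between tissues and for Srebf1, Srebf2, Insig1 and Insig2. The 3 further lists of lipid genes and the cell type markers are given by counts, with called lipid genes named, apart from some that are counted but not reported here by name. The members and lists were chosen with earlier results of these data known. The script was tested on simulated data. Alternatives were median centring, normexp correction (offset 50, on the median signals since the files hold no mean signal), no filter on dim probes, the deposited table, scan day and slide as blocks, a single scan day, the replicate number as a block, the methods' t-test with Benjamini-Hochberg adjustment, and leaving out each mouse. Promoters come from RefSeq (GRCm38.p6). The promoters of Fdps, Fdft1, Sqle, Stard4, Scd1 and Scd2 were not used here.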

Additional observations from a re-analysis of the deposited data

Results flagged for a closer look

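For the 33 member probes with full values, 198 groups of 8 mice were examined for a mouse far from the other 7, and 15 were found, where chance alone gives about 1 in 20 groups. WT replicate 3 was such a mouse in hypothalamus for 5 probes. It was the highest WT mouse for Pmvk (1) at 3.34 (the other 7 at 2.60 to 2.93) and for Insig2 (2) at 2.10 (1.18 to 1.51), and the lowest for Acaca (2) at -5.04 (-4.15 to -3.78), Nsdhl (3) at -0.89 (0.10 to 0.33) and Scd1 at 1.83 (2.48 to 3.04). Without it, 10 member probes were called in Per3 5/5 hypothalamus and 7 in Per3 4/4 hypothalamus. WT replicate 2 was the highest WT mouse in cortex for Mvd at 0.08 (-0.28 to -0.14), Cyp51 (1) at -1.45 (-1.95 to -1.71) and Stard4 (3) at -4.72 (-5.20 to -5.02), all 3 of them probes that were called higher in Per3 4/4 cortex.

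The other 7 lay in hypothalamus. In Per3 4/4 mice, Mvk (1) was -1.64 in replicate 6 (the other 7 at -1.27 to -0.95), Acly was 0.48 (0.72 to 0.90) and Dhcr7 (1) was 2.51 (2.69 to 2.79) in replicate 7, and Scd1 was 2.24 in replicate 1 (2.75 to 3.08). Acaca (4) was -2.32 in Per3 4/4 replicate 2 (-4.35 to -3.69) and -2.17 in Per3 5/5 replicate 7 (-4.17 to -3.38). Srebf2 (1) was -1.70 in WT replicate 8 (-1.15 to -0.73).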

How the results depend on the processing

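The number of member probes called against WT depended on the handling of scan day, slide and background. In the order Per3 5/5 cortex, Per3 4/4 cortex, Per3 5/5 hypothalamus and Per3 4/4 hypothalamus, the counts of 8, 17, 12 and 11 became 0, 9, 1 and 0 with scan day as a block, 0, 1, 0 and 0 within 1 scan day, 0 in each with slide as a fixed block and 5, 16, 6 and 6 with slide as a random block. They became 5, 13, 7 and 8 with median centring, 14, 28, 2 and 7 with normexp, 7, 17, 8 and 6 without the filter, and 8, 17, 12 and 11 from the deposited table. The share of all probes called moved too, from 12.4%, 22.5%, 18.8% and 15.1% to 11.6%, 18.4%, 17.7% and 13.5% with median centring, 31.4%, 54.7%, 6.25% and 6.09% with normexp, and 9.57%, 18.2%, 11.2% and 8.57% without the filter, in the same order. Where a count was 0 with scan day as a block, 11 (Per3 5/5 cortex) and 17 (Per3 4/4 hypothalamus) probes had an unadjusted p under 0.05 in limma. Leaving out 1 mouse gave 4 to 15, 15 to 21, 7 to 14 and 6 to 13. Of the 48 calls, 3 changed sign, all with slide as a fixed block in Per3 5/5 hypothalamus: Cyp51 (2) to 0.01, Fasn (2) to -0.10 and Idi1 (1) to 0.14. The cause was not tested.

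Replicate numbers across genotypes marked no shared mouse, and same-numbered mice deviated together only weakly (median correlations of -0.04 to 0.23 over 8 pairs, not all above 0.1). With the replicate number as a block the counts were 10, 19, 10 and 12, and 45 of 48 calls held. Per3 5/5 against Per3 4/4 gave 0 calls in each alternative that was run, and the paper's rank product analysis was not among them. The 35 tissue calls became 30 without the pairing of tissues by mouse, and 33 to 36 without 1 mouse. They depended on the scaling too: 29 of the 35 held with median centring and 31 with normexp, and none changed sign. For dim probes, such as Acaca (2) and (4), Stard4 (3) and Srebf2 (2), signal over background limits the precision.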
